A study of Mus musculus with 24 samples.

Results

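The thymus of mice without p27 was set against the thymus of mice without stathmin, the 2 single losses of a study that also held wild-type and double-knockout mice. The comparison set every array of the p27 knockout (6 mice) against every array of the stathmin knockout (6 mice), as their labels gave the genotype. These were 12 of the 24 arrays. Unless stated otherwise, limma p-values and standard errors came from a fit to all 24 arrays, wild-type and double-knockout arrays included. All mice were C57BL/6 and 15 weeks old. The p27 knockout lacks Cdkn1b and keeps Stmn1, the stathmin knockout lacks Stmn1 and keeps Cdkn1b, the double knockout lacks both genes and the wild type has both. The mice were separate biological replicates per the labels, which gave 3 females and 3 males per genotype without the sex of each array, and which did not describe the deletions or the cells the lines were made in. Each array compared thymus RNA, labelled with Cy5, with 1 common pool of RNA from fibroblasts of all genotypes, labelled with Cy3. A level below is therefore the log2 ratio of thymus over fibroblast pool, and a difference is the p27 knockout minus the stathmin knockout, fitted within slides, with its standard error after the sign ±.

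p27Kip1, the product of Cdkn1b, binds cyclin and cyclin-dependent kinase complexes and holds cells in G1. Stathmin, the product of Stmn1, binds tubulin dimers and promotes the disassembly of microtubules, and p27 is known to bind stathmin. The thymus consists mostly of immature T cells, many of them dividing, in a scaffold of epithelial cells, with natural killer cells, macrophages, vessels and surrounding fat in smaller numbers. In such bulk tissue, fewer cells of a type and less RNA per cell cannot be told apart.

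Arrays of the p27 knockout gave less thymus signal, and 1 of them stood apart. The 99th percentile of the Cy5 signal, in kilo-units of the scanner, averaged 86.4 ± 53.2 (SD, n = 6) without p27 and 239.5 ± 71.8 (SD, n = 6) without stathmin. It was lower in the p27 knockout on 6 of 6 slides, by 3.25-fold on average (exact two-sided sign-flip test, p = 0.0312, the smallest that 6 slides allow). The dimmest arrays were p27 knockout 5, at 50.7 kilo-units, and p27 knockout 6, at 19.4. On p27 knockout 6 the 30 genes of the T cell receptor list had a median level of 0.06, against 5.96 to 6.36 on the other p27 knockout arrays and 4.39 to 5.91 on the stathmin knockout arrays. Its double-positive thymocyte markers had a median of 0.08, against 6.01 to 6.48 on the other 5. That array thus did not show the thymocyte genes that mark its labelled tissue. On p27 knockout 5 these list medians were 6.36 and 6.03, but Cd4 read -0.22 there, against 4.13 to 5.24 on p27 knockout 1 to 4. Results are therefore given with and without p27 knockout 5 and 6. Every slide carried 1 array of each genotype, and each genotype kept its own position on the slide, so genotype and position on the slide cannot be told apart.

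The deleted genes were measured first, as a check of the labels. For Stmn1, probe A_52_P319161 read 0.79 at the lowest, 2.70 at the median and 3.22 at the highest in the p27 knockout. Without stathmin it read -3.65, -3.18 and -1.87. The groups did not overlap, and the lowest p27 knockout array was replicate 5, the others lying at 2.33 or above. The difference was 5.40 ± 0.31, a 42.1-fold higher ratio (limma, adjusted p = 3.25e-08 over all probes, higher on 6 of 6 slides), and 5.90 ± 0.27 without p27 knockout 5 and 6. The other Stmn1 probe, A_51_P495641, read -0.76, 3.37 and 4.09 in the p27 knockout and 1.72, 2.02 and 2.29 in the stathmin knockout. The overlap came from p27 knockout 6 alone, the other 5 arrays lying at 3.20 or above. Its difference of 0.80 ± 0.51 did not pass (limma, adjusted p = 0.24), whereas without p27 knockout 5 and 6 it was 1.63 ± 0.20 (limma, adjusted p = 0.00436). The labels do not say which exons were removed.

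For Cdkn1b, probe A_51_P146126 read -0.66 at the lowest, 0.37 at the median and 0.98 at the highest in the p27 knockout. The stathmin knockout values were 1.21, 1.58 and 2.30. Every p27 knockout array lay below every stathmin knockout array, and the difference was -1.34 ± 0.43 (limma, adjusted p = 0.0359 over all probes, lower on 6 of 6 slides). Without p27 knockout 5 and 6 the difference was -1.41 ± 0.50 and missed the threshold (limma, adjusted p = 0.0806). Probe A_51_P169173, averaged over 10 spots, was also lower in the p27 knockout, by -1.27 ± 0.22 (limma, adjusted p = 0.00698, and 0.0297 without the dim arrays), although it was well above background on only 1 p27 knockout array against 5 of the stathmin knockout. The third probe, A_52_P673863, differed by -0.45 ± 0.22 and did not pass (limma, adjusted p = 0.131).

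**Figure D1:**
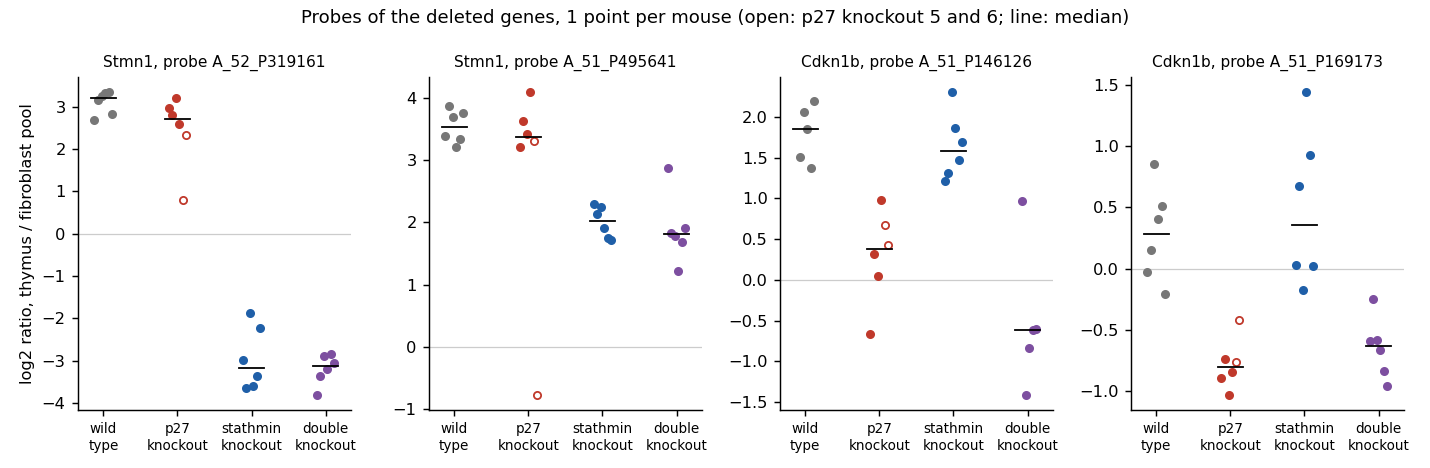
Log2 ratio of thymus over fibroblast pool for 2 probes of Stmn1 and 2 of Cdkn1b, 1 point per mouse in each of the 4 genotypes, with a line at the median and open points for p27 knockout 5 and 6. On Stmn1 probe A_52_P319161 the stathmin knockout lies between -3.65 and -1.87 and the p27 knockout between 0.79 and 3.22, and the y axes differ between panels.

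Of 24784 genes tested, 5467 differed between the single knockouts (limma, adjusted p under 0.05), which is 22.1% of genes. The p27 knockout was higher for 3727 genes, 15% of those tested, and lower for 1740, 7.02%. Without p27 knockout 5 and 6 the count was 1785, 7.2% of genes, with 1202 higher (4.85%) and 583 lower (2.35%). Of the genes called on all arrays, 1452 were called again in the same direction without those arrays, 964 of them higher and 488 lower. A fit to the 12 arrays of these genotypes alone called 784 genes, 3.16%, whereas the same fit to the 10 arrays left without p27 knockout 5 and 6 called 4126, with 2891 higher and 1235 lower. Leaving out those 2 arrays thus lowered the count in the fit that kept the other genotypes and raised it in the fit that did not. Of 90 named genes that passed on all arrays, 47 also passed without p27 knockout 5 and 6, and 36 in the fit to the 12 arrays. The Cy5 channel taken by itself gave a more even split, with 3669 genes higher and 2737 lower. The p27 and stathmin knockout arrays did not overlap for 646 of the 24784 genes, the p27 knockout lying above for 349 and below for 297. Genes given below as without overlap are to be read against these counts. With the brightness of each array as a further term no gene passed (0 of 24784, with 911 genes at an unadjusted p under 0.05), and brightness differed in the same direction between these genotypes on every slide. The median difference over all genes was 0.13 on all arrays and 0.12 without the dim ones, and the values of gene groups below are to be read against it. The authors' deposited table, which follows the mean brightness of both channels, had a median of -0.70 over all genes, with 72 higher and 13914 lower. The opposite sign that 29 named genes had there is therefore to be read against that shift, and 23 of the 29 lay above the table's own median. For the p27 knockout against stathmin knockout, single arrays moved the count by much: it was 1690 without stathmin knockout 2, 2315 without stathmin knockout 4, 3035 without p27 knockout 5, 3204 without stathmin knockout 5 and 3465 without stathmin knockout 6.

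Among genes that passed with the same sign on every slide, read by their brightest probe and leaving out the deleted genes and predicted or clone names, the 10 with the largest positive differences were Mid1, which encodes a microtubule-associated ubiquitin ligase, Ott, Pramel48, Phxr5, Zfp473, Otog, Adgra2, Myom3, Asah3l and Intu. Otog is known from the inner ear, Myom3 from muscle and Intu from cilia. Mid1 read 3.37, 5.66 and 7.96 (lowest, median, highest) in the p27 knockout and -0.37, 0.58 and 3.89 in the stathmin knockout. The groups overlapped. Its difference was 4.36 ± 0.84 (limma, adjusted p = 0.00821), and 3.34 without the dim arrays (adjusted p = 0.041). The other 9 of these genes differed by 3.47 to 4.03. Of the 10, Adgra2 alone missed the threshold without the dim arrays (adjusted p = 0.0506). Tlm, Dpf1 and Vmn1r33 were among the genes with the largest positive differences in that reduced set, at 2.88, 2.58 and 2.55.

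Where these genes had other probes, most did not show these differences. The 2 further probes of Mid1 gave 0.07 and 0.57 (limma, adjusted p = 0.906 and 0.406), that of Zfp473 gave -0.58, that of Asah3l -0.13 and those of Intu -0.88 (limma, adjusted p = 0.0255) and -0.16. Ott had 3.18 on its other probe (limma, adjusted p = 0.016).

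The level of this group was also read on the wild-type and double-knockout arrays, which are not in the contrast itself but were part of the fit that gave its error and p-values. Across the 12 wild-type and double-knockout arrays, the median level of the 10 genes correlated with log2 brightness at Pearson r = -0.94 (permutation p = 1e-05, the smallest that 100000 permutations can give, adjusted p = 7e-05 over 7 relations) and Spearman rho = -0.93 (permutation p = 6e-05, adjusted p = 0.00042). Without the wild-type arrays 4 and 6, which lay farthest from the median brightness, r was -0.83 (permutation p = 0.00315), and within the wild type alone it was -0.95 (n = 6, exact permutation p = 0.00417) and within the double knockout -0.86 (n = 6, exact permutation p = 0.0292). For the 10 genes with the largest negative differences the same arrays gave r = 0.45 (permutation p = 0.139, adjusted p = 0.162), rho = 0.45 (permutation p = 0.146, adjusted p = 0.341) and r = 0.07 without wild type 4 and 6 (permutation p = 0.85). Within the wild type their r was 0.78 (n = 6, exact permutation p = 0.0583) and within the double knockout 0.13 (n = 6, exact permutation p = 0.801). The group highest in the p27 knockout had a median level of 3.00 to 7.77 in the p27 knockout, 0.03 to 3.81 in the stathmin knockout, 0.51 to 4.50 in the wild type and 0.43 to 2.30 in the double knockout.

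**Figure D2:**
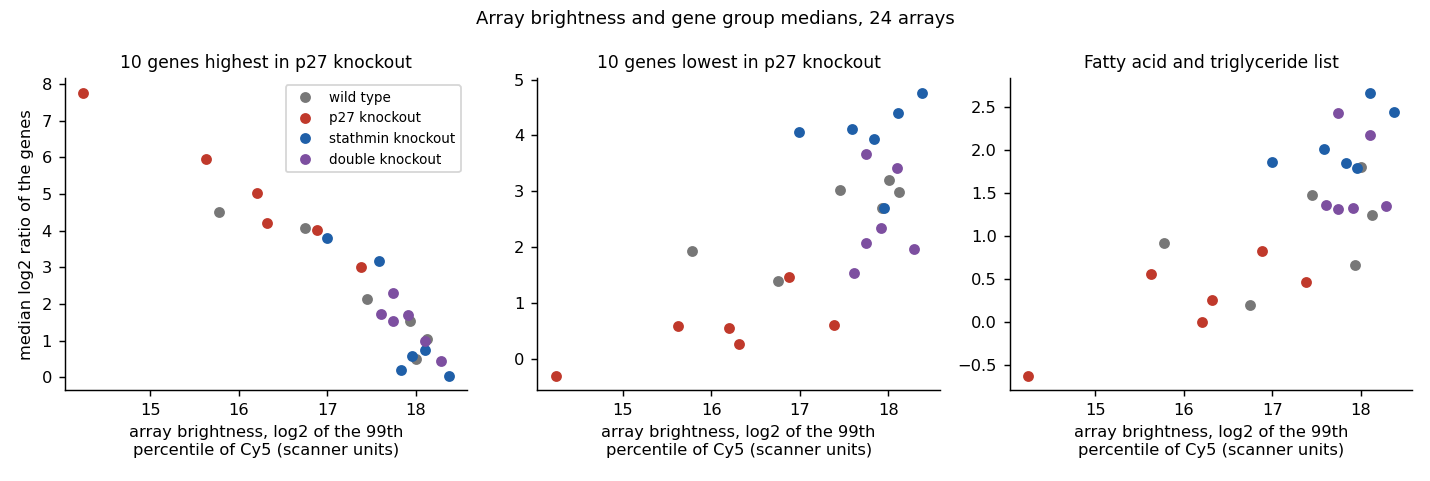
Array brightness (x, log2 of the 99th percentile of Cy5 in scanner units) against the median log2 ratio (y) of the 10 genes highest in the p27 knockout, the 10 lowest and the fatty acid and triglyceride list, for all 24 arrays coloured by genotype. The first group falls with brightness within the wild type and within the double knockout, with r = -0.94 over the wild-type and double-knockout arrays, against 0.45 and 0.47 for the other panels.

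Genes of fat synthesis were lower in the p27 knockout than in the stathmin knockout. Of 20 tested genes of fatty acid and triglyceride synthesis, 15 (75%, against 7.02% of all genes) were lower in the p27 knockout and 1 was higher, Elovl1, with a median difference of -1.57 (limma, adjusted p under 0.05). Without p27 knockout 5 and 6, 13 were lower (against 2.35% of all genes) and 0 higher (limma, adjusted p under 0.05), with a median of -1.12. In the fit to the 12 arrays of these genotypes 9 were lower and 0 higher. The list median lay between -0.63 and 0.82 on the p27 knockout arrays and between 1.79 and 2.66 on the stathmin knockout arrays, and it was lower in the p27 knockout on 6 of 6 slides. It kept its sign under every alternative tried, between -1.88 and -0.96. The value in the authors' deposited table, -1.68, is to be read against the median of -0.70 over all genes there. Wild-type arrays lay between 0.20 and 1.80 and double-knockout arrays between 1.30 and 2.42.

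Scd1, the desaturase that makes monounsaturated fatty acids, read 0.04, 1.83 and 3.52 (lowest, median, highest of 5 arrays, 1 spot having been an outlier) in the p27 knockout. It read 4.96, 5.64 and 7.33 in the stathmin knockout. No p27 knockout array reached the lowest stathmin knockout array, and the difference was -4.34 ± 0.59, or 20.2-fold (limma, adjusted p = 0.00267, and 0.0274 without the dim arrays). Fasn, fatty acid synthase, read -1.44, 0.12 and 0.61 against 2.00, 3.59 and 4.89. The groups were again apart, by -3.57 ± 0.51 (limma, adjusted p = 0.00267), and the second probe of Fasn gave -2.70. Agpat2, an acyltransferase on the way to triglycerides, read -1.66, -1.29 and 0.93 against 1.73, 2.20 and 4.13, with a difference of -3.49 ± 0.44 (limma, adjusted p = 0.00187) and of -3.49 ± 0.42 on its other probe. Fasn and Agpat2 did not overlap between groups. Elovl3, a fatty acid elongase of brown fat and skin glands, read -0.93, -0.05 and 1.78 against 2.37, 2.84 and 3.89 (difference -2.78 ± 0.36, limma, adjusted p = 0.00197), and only 2 of its 6 p27 knockout spots were well above background.

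Acaca, acetyl-CoA carboxylase, differed by -2.90 ± 0.38 on its brightest probe (limma, adjusted p = 0.00197), yet its 3 other probes gave 0.87 (adjusted p = 0.0332), -0.36 and 0.70 (adjusted p = 0.0258), so the gene is uncertain. Other members that passed, named here after their values were seen, were Me1 (-2.15), which supplies NADPH, the acyltransferases Dgat2 (-2.33), Dgat1 (-1.49) and Gpam (-1.11), Acly (-1.24), which makes cytosolic acetyl-CoA, the elongase Elovl6 (-1.64) and Acss2 (-1.15). All of these were also lower without the dim arrays. Srebf1, a main transcription factor of this pathway, differed by -0.24 ± 0.21 and did not pass (limma, adjusted p = 0.396). Of 18 genes of cholesterol synthesis 1 was higher and 1 lower, the sterol feedback regulator Insig1 (-1.61 ± 0.30, limma, adjusted p = 0.00805), with a median of 0.14. Other genes among the 10 most lowered were Acsl1, which activates long-chain fatty acids (-3.02 ± 0.66), and Orm1, an acute-phase protein of plasma (-3.01 ± 0.47). Chpt1, which makes phosphatidylcholine, was lower by -2.41 ± 0.51 and on its 2 other probes as well (-2.68 and -1.51).

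Because these genes moved together, their promoters were read from the RefSeq table of assembly GRCm38.p6. All list members but Scd1, Scd2, Elovl3, Dgat1 and Dgat2 were matched by symbol (15 of 20). The letters searched on both strands were TCACNCCA, the core of a sterol regulatory element, CCAAT, the box bound by nuclear factor Y, and CACGTG, an E-box. In the 250 bases before a start, CCAAT was found in 33.9%, CACGTG in 6.02% and TCACNCCA in 3.67% of 32841 promoters of all genes. Of the 11 matched members that were lower in the p27 knockout, 7 held CCAAT, 1 held CACGTG and 2 held TCACNCCA before at least 1 of their starts. CCAAT stood before 10 of all 15 matched members, among them 3 of the 4 that were not lower. These counts are per gene over all its starts and the shares of all genes are per promoter, so they are not on one scale. Acaca, Acly, Agpat2 and Elovl6, all lower, held none of the 3. Shown are promoters picked because they hold matches, the 250 bases before the start of Fasn, which held 3 CCAAT matches, of Acss2, and of 1 of the 2 starts of Gpam, which held both CCAAT and TCACNCCA, 5′ to 3′ along the gene. Capitals mark the matches, and 2 of the CCAAT matches of Fasn overlap on opposite strands.
Fasn, chr11:120824548-120824797, minus strand: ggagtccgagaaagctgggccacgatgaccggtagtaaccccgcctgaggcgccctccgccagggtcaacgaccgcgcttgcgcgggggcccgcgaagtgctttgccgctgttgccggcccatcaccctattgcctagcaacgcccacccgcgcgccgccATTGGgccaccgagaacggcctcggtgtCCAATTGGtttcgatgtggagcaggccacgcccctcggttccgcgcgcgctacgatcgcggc
Acss2, chr2:155517793-155518042, plus strand: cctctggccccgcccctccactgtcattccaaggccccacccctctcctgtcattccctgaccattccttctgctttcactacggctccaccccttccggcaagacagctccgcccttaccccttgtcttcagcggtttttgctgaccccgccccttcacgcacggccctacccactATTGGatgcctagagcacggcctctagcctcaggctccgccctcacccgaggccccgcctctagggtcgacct
Gpam, chr19:55127239-55127488, minus strand: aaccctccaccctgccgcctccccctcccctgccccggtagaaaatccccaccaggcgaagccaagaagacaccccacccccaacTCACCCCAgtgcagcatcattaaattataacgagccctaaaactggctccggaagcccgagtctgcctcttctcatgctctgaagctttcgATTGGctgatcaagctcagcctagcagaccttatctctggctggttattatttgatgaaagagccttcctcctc
These are matches of letters only. No data on binding were measured.

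Markers of fat cells were also lower in the p27 knockout. Of 24 tested markers, 16 (66.7%, against 7.02% of all genes) were lower in the p27 knockout and 0 higher, with a median of -1.78 (limma, adjusted p under 0.05). Within slides, the median difference of these markers was below 0 on 5 of 6 slides and 0.015 at the highest. Without the dim arrays 9 were lower (against 2.35% of all genes) and 0 higher (limma, adjusted p under 0.05), with a median of -1.35. In the fit to the 12 arrays 5 were lower and 0 higher. The list median lay between -0.09 and 3.06 on the p27 knockout arrays and between 3.28 and 4.56 on the stathmin knockout arrays. Fabp4, the fatty acid carrier of fat cells, read -0.61, 3.43 and 4.79 against 5.16, 6.36 and 7.03, with no overlap (difference -3.22 ± 0.61, limma, adjusted p = 0.00821). Lpl, which releases fatty acids from lipoproteins, differed by -2.37 ± 0.39 and Aqp7, the glycerol channel, by -2.35 ± 0.43. Both also passed without the dim arrays. The hormone Adipoq differed by -1.35 ± 0.67 and did not pass (limma, adjusted p = 0.14), nor did Cfd (-1.74 ± 0.93) or Ucp1 (-1.32 ± 0.67). Elovl3 belongs to this list and to the synthesis list. The part of fat tissue around the thymus in the synthesis result was not tested. Skeletal muscle markers, another tissue near the thymus, had 1 higher and 2 lower of 23, with a median of -0.77, and their list median on single arrays ranged from -0.45 to 2.31 and from 0.07 to 4.54.

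**Figure D3:**
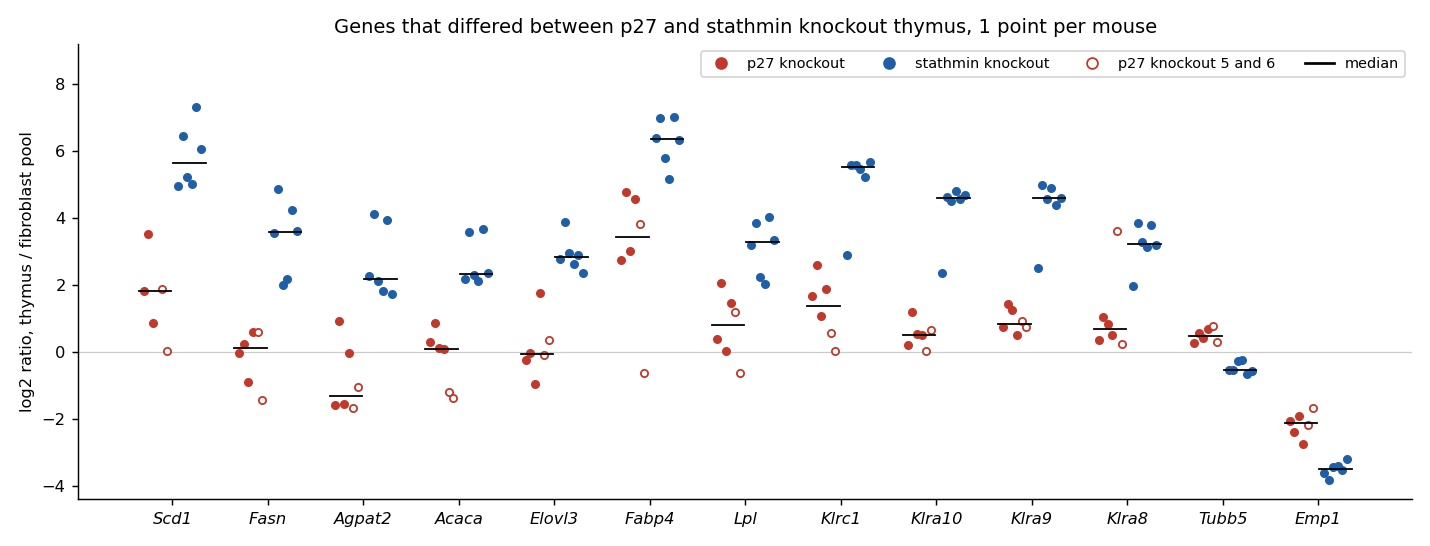
Log2 ratio of thymus over fibroblast pool (y) for 13 genes (x), 1 point per mouse in the p27 knockout (red, open for replicates 5 and 6) and the stathmin knockout (blue), with a line at the median of the 6 mice or fewer measured. Scd1 lies at 0.04 to 3.52 against 4.96 to 7.33, Klra10 at 0.03 to 1.20 against 2.37 to 4.82, and Tubb5 and Emp1 are higher in the p27 knockout.

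Receptors of natural killer cells encoded together on chromosome 6 were the other group with large negative differences. Of 26 tested genes of that cluster, mostly of the Klr families, 14 (53.8%, against 7.02% of all genes) were lower in the p27 knockout and 0 higher (limma, adjusted p under 0.05). Their median was -1.05. Without the dim arrays 12 were lower (against 2.35% of all genes) and 0 higher (limma, adjusted p under 0.05), with a median of -0.86. In the fit to the 12 arrays, which called 3.16% of all genes in either direction, 8 were lower and 0 higher. The median stayed negative under every alternative, between -1.59 and -0.69. Its value in the authors' deposited table, -1.29, is to be read against the median of -0.70 over all genes there. Klrc1, the inhibitory receptor NKG2A, read 0.04, 1.37 and 2.60 in the p27 knockout and 2.90, 5.53 and 5.68 in the stathmin knockout. The groups did not overlap, and the stathmin knockout value nearest the p27 knockout came from replicate 1. The difference was -3.78 ± 0.52 (limma, adjusted p = 0.00267), and the second Klrc1 probe gave -1.63.

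Klra10, of the Ly49 family that recognises MHC class I, read 0.03, 0.53 and 1.20 against 2.37, 4.60 and 4.82 (difference -3.74 ± 0.46, limma, adjusted p = 0.00143). Klra9 read 0.51, 0.84 and 1.44 against 2.52, 4.59 and 4.98 (difference -3.38 ± 0.40, limma, adjusted p = 0.00139). Neither gene overlapped between groups, which held in this direction for 297 of all 24784 genes. Klra10 lay at a median of 3.39 in the wild type and 0.68 in the double knockout, Klra9 at 3.56 and 2.28, and Klrc1 at 4.14 and 3.89. Members of the Klra family are near-identical in sequence, so a probe may read more than 1 of them and single members are uncertain. Klrb1c, the marker NK1.1, was lower by -1.49 ± 0.30 (limma, adjusted p = 0.00821) and by -1.34 on its other probe. Of 15 markers of natural killer and cytotoxic cells, a list that holds Klrb1c too, 1 was lower and 0 higher (limma, adjusted p under 0.05), with a median of -0.49, and 2 were lower without the dim arrays, Klrb1c and Klre1. Gzmb, granzyme B, differed by -1.07 ± 0.41 (limma, adjusted p = 0.0659) and Klrd1, the partner chain of Klrc1, by -1.31 ± 0.63 (limma, adjusted p = 0.129).

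Part of this receptor cluster lies within 30 tested genes of Cdkn1b, so the neighbours of both deleted genes were read in the order of the gene table. Among 60 neighbours of Cdkn1b, 15 were higher and 10 lower in the p27 knockout, and 8 were higher and 7 lower without the dim arrays. Among 60 neighbours of Stmn1, 8 were higher and 8 lower, and 6 and 2 without the dim arrays. Of all genes 15% were higher and 7.02% lower, and 4.85% and 2.35% without the dim arrays. The shares of whole chromosomes that follow are not those of the neighbours. The share called was 24.6% over the whole of chromosome 6 and 22.7% over chromosome 4, against 22.1% of all genes, and the highest of any chromosome was 24.7%, on chromosome 7. Without the dim arrays it was 8.92% over chromosome 6, the highest of any chromosome, 7.61% over chromosome 7 and 6.74% over chromosome 4, against 7.2% of all genes. Klra6, Klra8, Klra9, Klra10, Klra3 and Klra5 were 6 of the 10 lower neighbours of Cdkn1b.

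Gpr19, an orphan receptor and the tested gene next to Cdkn1b, read -1.91, -1.23 and -0.15 in the p27 knockout and -0.56, 0.58 and 0.96 in the stathmin knockout. Only stathmin knockout 3 fell within the p27 knockout range. The difference was -1.63 ± 0.26 (limma, adjusted p = 0.00557, and 0.0331 without the dim arrays). Emp1, a membrane protein of epithelia 8 tested genes away, was higher instead, reading -2.75, -2.11 and -1.65 against -3.82, -3.47 and -3.17 without overlap (difference 1.33 ± 0.19, limma, adjusted p = 0.00267). Its median was -3.52 in the wild type and -2.40 in the double knockout, which shares the p27 deletion.

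Around Stmn1, Ubxn11 read -1.56, 0.25 and 0.96 in the p27 knockout and 1.53, 2.77 and 3.02 in the stathmin knockout (difference -2.53 ± 0.43, limma, adjusted p = 0.00683). Hmgn2, a nucleosome-binding protein, read 0.57, 2.50 and 2.78 against 3.09, 4.09 and 4.69 (difference -1.91 ± 0.34, limma, adjusted p = 0.00805). Neither overlapped between groups. Their double-knockout medians, 2.75 and 4.15, lay near those of the stathmin knockout, and their wild-type medians were 1.25 and 2.77. Pafah2, the tested gene next to Stmn1, was higher by 1.38 ± 0.29, Sh3bgrl3 by 0.81 ± 0.15 and Wdtc1 by 1.03 ± 0.21, each without overlap and each past the threshold without the dim arrays. Myom3, given above among the largest positive differences, also lies 20 tested genes from Stmn1 (3.53 ± 0.79, limma, adjusted p = 0.0102, and 0.0483 without the dim arrays).

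**Figure D4:**
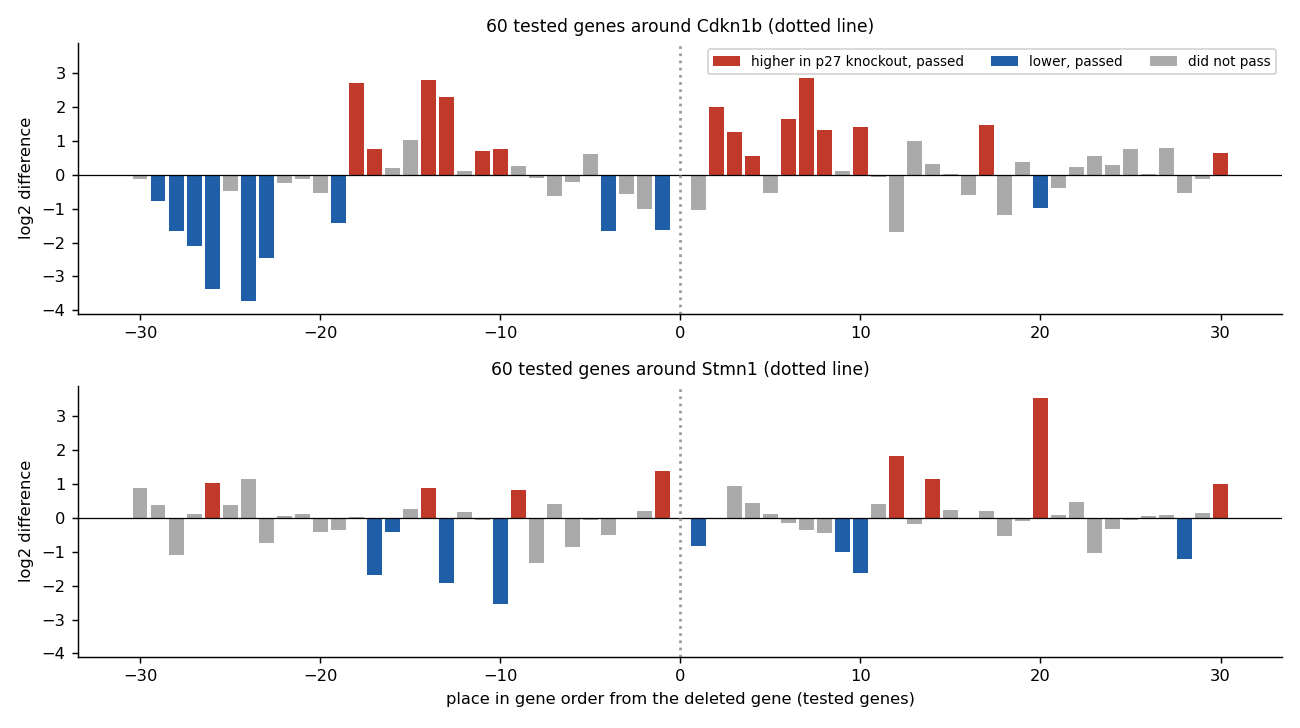
Difference in log2 ratio, p27 knockout minus stathmin knockout (y), for 30 tested genes on each side of Cdkn1b (top) and Stmn1 (bottom) in gene order (x), coloured where the adjusted p was under 0.05. The run of lower genes at the left of Cdkn1b holds Klra genes, down to -3.74.

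The 2 deleted genes act on the cell cycle and on microtubules, and the lists of those systems were read next. Counts from here on are to be read against the shares of all genes, 15% higher and 7.02% lower on all arrays. Without the dim arrays these shares were 4.85% and 2.35%. Of 18 G1 cyclins, their kinases and factors of p27 degradation, 0 were higher and 2 lower (limma, adjusted p under 0.05), with a median of -0.20. Those 2 were Cdk2, a main target of p27, at -1.86 ± 0.46 (limma, adjusted p = 0.0145), and Uhmk1, a kinase that phosphorylates p27 and stathmin, at -1.33 ± 0.39 (adjusted p = 0.0252). Neither passed without the dim arrays (adjusted p = 0.0737 and 0.16). Of 29 DNA replication genes 1 was lower, Cdc45 (-1.68 ± 0.56), and of 26 G2/M and mitosis genes 2 were higher and 1 lower, the spindle checkpoint kinase Ttk (-0.91 ± 0.30). The higher ones were the mitotic kinase Aurka (0.48 ± 0.17) and Foxm1, a transcription factor of mitotic genes (0.74 ± 0.18), and Foxm1 passed without the dim arrays as well (limma, adjusted p = 0.0404). Pcna, the replication clamp, differed by -0.75 ± 0.32 and Top2a, the mitotic topoisomerase, by -1.15 ± 0.51, and neither passed. The medians of these lists were -0.07 and -0.06 with the dim arrays and 0.31 and 0.28 without, where 0 and 1 replication and mitosis genes passed.

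Among 13 E2F and pocket proteins 3 were higher and 1 lower, Tfdp2 (-0.79 ± 0.23), with a median of 0.23. The higher ones were E2f6 (0.79 ± 0.22), E2f1 (0.73 ± 0.21) and E2f5 (0.58 ± 0.17), none of which passed without the dim arrays and whose second probes had the opposite sign. Of 8 CDK inhibitors, Cdkn1a (1.38 ± 0.35), Cdkn2a (1.61 ± 0.42) and Cdkn2b (1.60 ± 0.43) were higher and Cdkn1b was lower, and none of the 4 passed without the dim arrays. The median of that list was 0.59, and it was -0.67 in the authors' deposited table, close to that table's median over all genes, and -0.07 with brightness as a further term. Of 18 p53 targets Cdkn1a was the single one higher and 0 were lower. Of 14 BCL2-family genes 0 were higher and 1 lower, Bad, which promotes apoptosis (-0.93 ± 0.23, limma, adjusted p = 0.0137, and 0.0404 without the dim arrays), and of 16 replication-dependent histones 0 were higher and 1 lower, H2bc6 (-0.81 ± 0.19, limma, adjusted p = 0.0117, and 0.0404 without the dim arrays).

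Among 12 alpha and beta tubulins 4 were higher and 1 lower, with a median of 0.25 that became -0.07 with ratios scaled between arrays and -0.74 in the authors' deposited table, near the median of all genes there. Tubb5, a beta tubulin of dividing cells, read 0.28, 0.50 and 0.79 in the p27 knockout and -0.65, -0.53 and -0.24 in the stathmin knockout. The ranges were clearly apart, and the difference was 0.97 ± 0.15 (limma, adjusted p = 0.00509), 0.99 without the dim arrays (adjusted p = 0.0144) and 0.55 on the second probe. Wild-type arrays lay between 0.05 and 0.56 and double-knockout arrays between -0.66 and 0.08. Tuba8 was lower by -1.79 ± 0.36 and passed without the dim arrays (adjusted p = 0.0408), whereas Tubb6 (1.18 ± 0.32, but -0.51 on its other probe) and Tubb3 (1.17 ± 0.35) passed only with them. Of 22 microtubule regulators 2 were higher, Kif2a (2.42 ± 0.60), a depolymerising kinesin, and Mapre2 (0.58 ± 0.20), and 2 lower, with 0 and 0 without the dim arrays (limma, adjusted p under 0.05) and a median of 0.12. The other probes of Kif2a had the opposite sign, at -1.03 (limma, adjusted p = 0.0295) and -0.31 (adjusted p = 0.194), so that gene is uncertain. In the stathmin family Stmn4 differed by 2.68 ± 0.80 (limma, adjusted p = 0.027, and 0.0802 without the dim arrays) and Stmn2 by 0.55 ± 0.47 (adjusted p = 0.392). That family's median over 4 genes was 0.68, with 1 higher and 0 lower.

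A further gene, chosen after its value was seen, was the clone AK032599, to which no gene name was matched. It read 1.17, 2.08 and 3.61 in the p27 knockout and -2.30, -1.13 and -0.49 in the stathmin knockout. The groups did not overlap, and the difference was 3.47 ± 0.38 (limma, adjusted p = 0.000881, and 0.00701 without the dim arrays). Its median was 1.06 in the wild type and -1.52 in the double knockout.

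Genes of oxidative phosphorylation were lower in the p27 knockout as a group of small differences. Of 35 tested, 22 (62.9%, against 7.02% of all genes) were lower and 0 higher, with a median of -0.73 (limma, adjusted p under 0.05). Without the dim arrays 9 were lower and 0 higher (limma, adjusted p under 0.05), with a median of -0.65, while 34 of 35 lay below 0 in both fits. In the fit to the 12 arrays of these genotypes 0 were lower and 0 higher (limma, adjusted p under 0.05), so every call was lost there. Cyc1, of complex III, read -0.69, 0.02 and 0.39 against 0.24, 1.21 and 1.69 (difference -1.13 ± 0.21, limma, adjusted p = 0.00805). Cox5a, of complex IV, read -0.12, 0.72 and 0.95 against 0.97, 1.63 and 2.02, just without overlap (difference -0.92 ± 0.19), although its other probe gave 0.49 (limma, adjusted p = 0.314). Atp5a1, of the ATP synthase, was lower by -0.79 ± 0.16 and also without overlap. The list median was -0.34 to 0.44 on p27 knockout arrays and 0.52 to 1.43 on stathmin knockout arrays, with wild-type arrays between 0.15 and 0.83. It stayed negative under every alternative, between -0.97 and -0.43. The value in the authors' deposited table, -0.88, lay near the median of -0.70 over all genes there, so its sign there says little. The fat cell markers given above moved the same way, and their part in this result was not tested. Glycolysis had 0 higher and 2 lower of 14, Ldha (-0.52 ± 0.15) and Pgam1 (-0.55 ± 0.17), with a median of -0.05.

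The T cells that make up most of the thymus were read through several lists. Of 30 T cell receptor genes 0 were higher and 0 lower on all arrays (limma, adjusted p under 0.05), with a median of -0.13, while without the dim arrays 6 were higher, among them Cd3d (0.95) and the kinase Lck (0.93), and 0 lower, with a median of 0.76. Of 19 double-positive thymocyte markers 0 were higher and 0 lower (limma, adjusted p under 0.05, median -0.17), and 5 were higher and 0 lower without the dim arrays (median 0.60). The medians of the T cell receptor and double-positive lists turned positive on leaving out p27 knockout 6 alone (0.75 and 0.36), the array on which these genes were at about 0. Cd4 read -0.53, 4.27 and 5.24 against 3.68, 4.30 and 4.52 and did not pass in either fit (limma, adjusted p = 0.263 and 0.225). Of 16 early double-negative markers 1 was higher and 1 lower, Hes1, a target of Notch (-1.41 ± 0.38). Of 20 mature and regulatory T cell markers 0 were higher and 4 lower, among them Runx3 (-1.63 ± 0.37), which also lies near Stmn1, Ctla4 (-1.41 ± 0.42) and Ms4a4b (-1.51 ± 0.49). The second probe of Runx3 was higher instead, by 0.82 (limma, adjusted p = 0.0311), so that gene is uncertain. The other probes of Ms4a4b gave -1.11, -1.37 and 0.08, and none of them passed (limma, adjusted p = 0.162, 0.111 and 0.894). None of the genes lower in these last lists passed without the dim arrays.

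Of 18 immediate early genes, which answer to receptor signals and to handling of tissue, 6 were higher (33.3%, against 15% of all genes) and 0 lower. The median was 0.46 (-0.72 in the authors' deposited table, near the median of all genes there). Without the dim arrays 3 were higher, against 4.85% of all genes. Nr4a1, induced by T cell receptor signals, read -1.22, -0.82 and -0.42 against -2.13, -1.94 and -1.22. The groups touched but did not overlap (difference 0.97 ± 0.22, limma, adjusted p = 0.0111, and 0.0441 without the dim arrays). Zfp36, which destabilises mRNAs, was higher by 0.75 ± 0.20 and passed in both fits, and Egr2 by 0.71 ± 0.18 on all arrays only. On single arrays the list median overlapped by little, at -1.29 to -0.45 against -1.67 to -1.05. Heat shock chaperones had 0 higher and 0 lower of 14 in both fits (limma, adjusted p under 0.05), with a median of -0.07.

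The other immune and stromal lists are given by their counts, beside 7.02% of all genes lower with the dim arrays and 2.35% without them. Macrophage and myeloid markers had 6 lower of 21 and 0 higher (median -0.62), among them Csf1r (-1.02 ± 0.24), Lyz1 (-1.91 ± 0.50) and the complement gene C1qa (-1.64 ± 0.41). By brightest probe C1qa alone passed without the dim arrays (limma, adjusted p = 0.0476). The other probes of Csf1r gave -1.745 (limma, adjusted p = 0.00791, and 0.0427 without the dim arrays) and 0.03 (adjusted p = 0.947). MHC presentation genes had 4 lower of 17 (median -0.81), including H2-DMa (-1.70 ± 0.53), H2-D1 (-1.07 ± 0.33) and B2m (-1.23 ± 0.43), and 0 lower without the dim arrays, where the median was -0.03. B and plasma cell markers had 3 lower of 20 (Blk, Xbp1 and Cd22, -1.40 to -1.82), endothelial markers 3 lower of 20 (Tek, Sox17 and Eng, -0.67 to -1.33) and dendritic cell markers 1 higher and 1 lower of 16, Clec9a (-1.29 ± 0.30). Without the dim arrays these lists had 0, 1 and 0 lower, the 1 being Tek, a receptor of vessels (adjusted p = 0.0416). The other probe of Tek was higher on all arrays, by 1.54 (limma, adjusted p = 0.0457). Those of Sox17 disagreed, at -1.25 (limma, adjusted p = 0.0329) and 0.68 (adjusted p = 0.0151), so both genes are uncertain.

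Cortical thymic epithelium had 0 higher and 1 lower of 16, the Notch ligand Dll4 (-0.86 ± 0.30), and medullary epithelium 0 and 0 of 17 (limma, adjusted p under 0.05). Interferon-stimulated genes had 2 higher and 2 lower of 26, and ribosomal proteins 2 and 2 of 36, with Rpl4 at -1.42 ± 0.44. Erythroid markers had 0 and 0 of 11 and lymph node stroma 0 and 0 of 13 (limma, adjusted p under 0.05). Parathyroid and thyroid markers had 1 higher and 0 lower of 10, with a median of 0.03.

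Fibroblast and matrix genes, which are much higher in the reference pool than in thymus, were higher in the p27 knockout on all arrays, a direction that turned with brightness as a further term (median -0.17). In the authors' deposited table the list median was -0.38, above the -0.70 of all genes there. Of 26 tested, 18 (69.2%, against 15% of all genes) were higher and 0 lower, with a median of 1.18, against 0 higher and 0 lower without the dim arrays (limma, adjusted p under 0.05, median 0.63) and 0 and 0 in the fit to the 12 arrays. Col1a2, a chain of collagen I, read -3.09, -1.22 and 1.09 against -3.35, -3.06 and -2.17, Acta2, smooth muscle actin, differed by 1.79 ± 0.43 and Timp1, a protease inhibitor, by 1.39 ± 0.35. The highest values came from the dim arrays, where the list median was -1.87 and -0.75 against -3.43 to -2.31 on the other p27 knockout arrays. The other probes of Acta2 gave 0.29, 1.29 and 0.72 and did not pass (limma, adjusted p = 0.7, 0.0685 and 0.31). Those of Timp1 gave 1.78 and 1.82 and passed (limma, adjusted p = 0.0126 and 0.0113). In the 12 wild-type and double-knockout arrays the list median followed brightness at Pearson r = -0.75 (permutation p = 0.00857, adjusted p = 0.03) and Spearman rho = -0.87 (permutation p = 0.00047, adjusted p = 0.00164), and at r = -0.71 without wild type 4 and 6 (permutation p = 0.0196). Of 1680 genes whose wild-type level was below -2, 30.2% were higher in the p27 knockout and 0.417% lower, against 1.01% and 0.952% without p27 knockout 5 and 6.

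The relation of brightness to the fat, mitochondrial and natural killer groups was looked at in the same 12 arrays. For fatty acid and triglyceride synthesis r was 0.47 (permutation p = 0.133, adjusted p = 0.162) and rho 0.28, for fat cells r was 0.59 (permutation p = 0.0301, adjusted p = 0.0703) and rho 0.39, for oxidative phosphorylation r was 0.48 (permutation p = 0.103, adjusted p = 0.162) and rho 0.29, and for the natural killer receptors r was 0.13 (permutation p = 0.667, adjusted p = 0.667) and rho 0.18. Adjusted permutation p values of these rho lay between 0.365 and 0.575. Without wild type 4 and 6 these r were -0.03, 0.10, 0.05 and 0.21 (permutation p = 0.927, 0.778, 0.888 and 0.569). Those 2 arrays were the dimmest of the 12, so the arrays left cover a smaller range of brightness. Within the wild type r was 0.44, 0.65, 0.56 and 0.46 (n = 6, exact permutation p = 0.383, 0.161, 0.261 and 0.343), and within the double knockout 0.0025, 0.36, 0.18 and 0.31 (exact permutation p = 0.993, 0.496, 0.721 and 0.55). The part of brightness in these groups was not tested further.

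**Figure D5:**
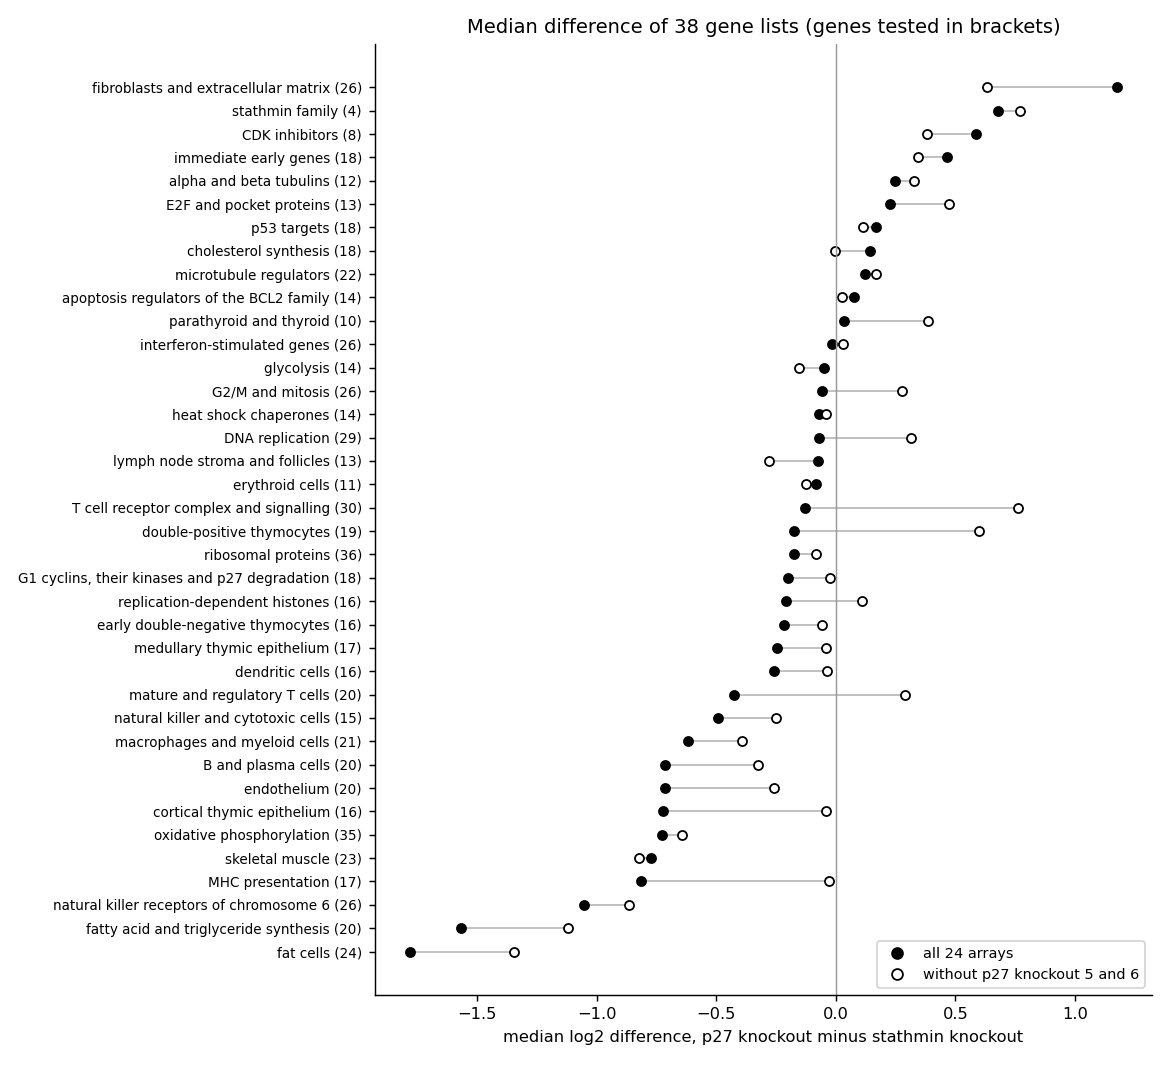
Median difference in log2 ratio, p27 knockout minus stathmin knockout (x), of 38 gene lists (y, with the number of genes tested), on all 24 arrays (filled) and without p27 knockout 5 and 6 (open). Fat cells, fatty acid synthesis and natural killer receptors are lowest in both, from -1.78 to -0.86, while T cell receptor and double-positive markers move from -0.13 and -0.17 to 0.76 and 0.60.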

How the data were processed

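RNA of 24 thymuses was hybridised on 2-colour Agilent mouse arrays with 45018 spots each, 6 mice per genotype. The authors deposited scanner files with Cy5 and Cy3 intensity per spot, made with Agilent Feature Extraction 9.1.3.1, and a log10 ratio of Cy5 over Cy3, per the file headers. They also deposited a table of log2 values for all 24 arrays. Its columns followed the mean log2 brightness of both channels (lowest correlation 0.9999) and not the ratio (highest 0.067), and its centring is unknown. Its column medians were 8.75, 8.75, 8.90, 9.12, 8.76 and 8.62 for the p27 knockout and 10.6, 9.46, 8.88, 9.10, 9.18 and 9.20 for the stathmin knockout.

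Intensities were corrected with normexp (offset 50) and normalised by loess within each array in R 4.3.3 with limma 3.58.1. Control spots had weight 0 in the loess, outlier spots were removed and spots of a probe were averaged. Of 41174 gene probes, 35185 had Cy5 well above background on at least 6 arrays, and the brightest probe stood for each of 24784 genes. Names came from the GRCm38.p6 gene table through accessions for 22951 probes and from the files for 18223. limma was fitted to all 24 arrays with genotype and slide, Benjamini-Hochberg adjustment ran over all genes, and the threshold was 0.05. P-values of single genes are from this fit, except those given without p27 knockout 5 and 6, from the fit without these arrays, and those of single probes, which were adjusted over 35185 probes. No array was identical to another (0 pairs), and the number of arrays limits the precision. On simulated data with 200 of 24784 genes changed, 57 of 100 at 1 log2 unit and 90 of 100 at 2 log2 units were recovered, with 0 in the wrong direction and 10 false calls. The simulated spread came from the stathmin knockout arrays alone, without dim arrays. Mean correlation with the other real arrays was 0.83 to 0.86 there, against 0.59 and 0.21 for p27 knockout 5 and 6. These rates therefore do not describe the real contrast.

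The comparison and the 38 gene lists were chosen with earlier results of these data known. Named were the deleted genes, the 10 largest differences each way among genes that passed with the same sign on every slide, 8 each way without p27 knockout 5 and 6, the 3 members of lowest p in the direction of each list's median, and the 5 neighbours of lowest p of each deleted gene. Xist, Tsix, Y-linked genes and predicted, clone or accession names were left out of this rule. Other members were named after their values were seen, and 2 members the rule chose are not reported here. The alternatives changed the background correction, normalisation, filter, probe rule, block and arrays. Mice with the same replicate number differed in genotype and so were separate animals, and whether the numbers pair them otherwise was not settled. Brightness relations used 100000 permutations.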

Additional observations from a re-analysis of the deposited data

Results flagged for a closer look

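Of 154 groups of 6 arrays examined, 26 held an array whose gap to the nearest other array exceeded Dixon's limit for 6 values, taken as a share of the group's range. About 1 group in 20 does so by chance, and these groups share arrays. Several came from p27 knockout 6. There Stmn1 read -0.76 on its brighter probe against 3.20 to 4.09 on the other 5 arrays, Pramel48 read 9.31 against 3.95 to 5.93, Fabp4 read -0.61 and Acsl1 read -3.81.

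List medians on p27 knockout 6 stood apart for T cell receptor genes (0.059, the others 5.96 to 6.36), double-positive thymocytes (0.078), cortical epithelium (-0.60, the others 3.17 to 3.56), medullary epithelium (0.11), DNA replication (-0.63), G2/M and mitosis (0.084), histones (-0.98), oxidative phosphorylation (-0.34) and MHC presentation (-0.19).

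On p27 knockout 5, Klra8 read 3.61 against 0.24 to 1.06, and the Stmn1 probe A_52_P319161 read 0.79 against 2.33 to 3.22. On p27 knockout 2 the skeletal muscle median was 2.31 against -0.45 to 0.57.

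In the stathmin knockout, replicate 1 had the lowest natural killer receptors, with Klrc1 at 2.90 against 5.24 to 5.68, Klra10 at 2.37, Klra9 at 2.52 and the natural killer and cytotoxic list at 1.40 against 2.58 to 2.80. Replicate 3 had Gpr19 at -0.56 against 0.41 to 0.96, tubulins at -0.34, microtubule regulators at -0.057 and ribosomal proteins at 0.37. Replicate 5 had CDK inhibitors at -2.95 against -1.54 to -1.04, and replicate 6 had cholesterol synthesis at -0.70.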

How the results depend on the processing

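For the p27 knockout against stathmin knockout, 5467 genes were called (3727 higher and 1740 lower in the p27 knockout). The count was 8236 with Agilent's log ratio (3035 lower), 8410 with ratios scaled between arrays (3155 lower), 3609 with Cy5 well above background on all 12 arrays (987 lower) and 11029 with array weights (7492 higher, 3537 lower). It was 1785 without p27 knockout 5 and 6 (1202 and 583), 784 on the 12 arrays alone (520 and 264) and 0 with brightness as a covariate (0 and 0, limma, with 911 at an unadjusted p under 0.05). The Cy5 channel alone gave 2737 lower and each probe on its own 3523 lower. The authors' deposited table of mean brightness gave 13986 (72 higher, 13914 lower), around a median of -0.70 over all genes. The cause of these shifts was not tested. Leaving out single arrays gave 1690 to 6065 genes, 1108 to 4170 higher and 582 to 1903 lower, the lowest count without stathmin knockout 2. Replicate numbers in place of slides as the block gave 4676 genes, and arrays with the same number correlated at -0.34 to 0.18. Arrays known to share a slide correlated at only -0.20 to 0.47, so these values cannot decide whether the numbers pair the mice.

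For the deleted genes, Cdkn1b probe A_51_P146126 missed the threshold on the 12 arrays alone (-1.34), without p27 knockout 5 and 6 (-1.41) and with brightness (-1.61), and ranged from -1.57 to -1.16 on leaving out single arrays. Probe A_51_P169173 missed it on the 12 arrays (-1.27) and with brightness (-1.06). Stmn1 probe A_51_P495641 passed without p27 knockout 5 and 6 (1.63, and 1.67 on the 10 arrays left) and with array weights (1.65), with 0.60 to 1.54 on leaving out single arrays. Cdkn1b probe A_52_P673863 passed with array weights (-0.60), with -0.61 to -0.31 on leaving out single arrays.

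Signs turned for 29 named genes in the authors' deposited table, 23 of them above that table's median. There Cdkn1a was -0.31, Cdkn2a -0.25, Cdkn2b -0.24, E2f6 -0.64, E2f1 -0.81, E2f5 -0.63, Stmn2 -0.56, Tubb5 -0.33, Tubb6 -0.39, Tubb3 -0.48, Mapre2 -0.75, Clasp1 -0.79, Aen -0.66, Sesn2 -0.49, Pmaip1 -0.81, Bak1 -0.90, Bcl2l2 -0.74, Msmo1 -0.58, Dhcr7 -0.67, Nr4a1 -0.50, Egr2 -0.69, Zfp36 -0.67, Acta2 -0.095, Col1a2 -0.17, Timp1 -0.27, Emp1 -0.37, Sh3bgrl3 -0.38, Wdtc1 -0.69 and Pafah2 -0.36. With brightness as a covariate 14 turned. Cdkn2a was -0.17, Cdkn2b -0.19, Cdc45 0.16, Tubb6 -0.087, Tubb3 -0.18, Kif2a -0.074, Irf7 0.026, H2-DMa 0.40, H2-D1 0.076, Tap1 0.35, Ms4a4b 0.11, Acta2 -0.052, Col1a2 -0.077 and Timp1 -0.057. The mean of all probes turned Tek to 0.11.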
